A study of Mus musculus with 8 samples.

Results

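The mouse genes that encode UDP-glucuronosyltransferases (Ugt) and cytosolic sulfotransferases (Sult) were described in tumour and non-tumour liver. Members were the genes whose symbol begins with Ugt or Sult followed by a family number, a subfamily letter and a gene number, with pseudogenes left out. This gave 42 genes, 21 Ugt and 21 Sult, of the 54838 gene IDs counted. Messenger RNA of 8 whole-liver pieces from male, wild-type C57BL/6J mice was sequenced in bulk, 4 labelled tumour and 4 labelled non-tumour. All pieces, non-tumour ones included, came from mice injected intraperitoneally with the liver carcinogen DEN (diethylnitrosamine) on day 15 and fed a high-fat diet with SW, which the labels do not expand. A span of 30 weeks appears in the labels for the diet and also for the interval since injection, which leaves the age uncertain. There was no group without DEN or on another diet, and whether each piece had its own mouse is not labelled, so the tests reflect the spread between these pieces, which may be technical.

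Both families add a polar group to small molecules so that they can leave the body in bile or urine. UDP-glucuronosyltransferases sit in the membrane of the endoplasmic reticulum and transfer glucuronic acid from UDP-glucuronic acid to bilirubin, steroids, bile acids and drugs. Sulfotransferases are soluble and transfer a sulfonate group from 3'-phosphoadenosine-5'-phosphosulfate (PAPS) to phenols, steroids, bile acids and catecholamines. The liver is a main site of both reactions. The Ugt1a genes are variants of one locus, each with its own promoter and first exon joined to a common set of downstream exons, whereas the Ugt2b genes are separate copies that lie side by side.

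The libraries held 15446690 to 21977052 assigned reads, and members took 0.342% to 0.478% of them in the tumour libraries and 0.447% to 0.555% in the non-tumour libraries. Tumour 2 and tumour 4 were nearly the same, as were non-tumour 2, 3 and 4: the chi-square of gene counts per degree of freedom was 1.58 to 3.28 in these 4 pairs and 71.7 to 165 in the other 24. Each such set was counted as 1 sample, which left 3 tumour and 2 non-tumour profiles. Tumour 3 went against its label in one respect. The summed level of the tumour markers Afp, Gpc3 and H19 was 1442, 928, 2.79 and 942 CPM (counts scaled for library size by the TMM method) in tumours 1 to 4, against 90.3, 18.4, 20.3 and 19.3 CPM in non-tumour pieces 1 to 4. Non-tumour 1 stood apart too, with 527 CPM of 6 Kupffer cell markers against 155 to 158 CPM in the other non-tumour pieces and 144 to 200 CPM in tumours. Hepatocyte markers were abundant throughout, at a sum of 112159 to 165058 CPM in tumour and 90701 to 105803 CPM in non-tumour libraries. The part of cell composition in the results below was not tested. In bulk tissue, fewer cells of a type and less RNA per cell cannot be told apart.

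Of the 42 members, 33 had more than 3 reads in at least 1 library, 17 Ugt and 16 Sult. The 9 others were Sult1c1, Sult2a3, Sult3a2, Sult6b1, Sult6b2, Ugt1a2, Ugt1a8, Ugt2a1 and Ugt2a2, with at most 3 reads in any library. A count of 3 corresponds to 0.137 CPM at the greatest depth and 0.205 CPM at the least. For Ugt2a1 and Ugt2a2 the counting left little to see, since 98.8% and 94.5% of their exon bases overlap exons of other genes and such reads were not counted. The filter on low counts passed 27 members, 16 Ugt and 11 Sult, and only these entered the test. The counting also dropped reads that fit several places. A share of the 31-base words in the transcripts of some members occurs in transcripts of other genes. It was 84.2% for Ugt1a6b, 72.9% for Ugt1a10, 67.8% for Ugt1a9, 65.3% for Ugt1a5, 58.5% for Ugt1a1 and 53% for Ugt1a6a. Ugt1a6b had 83.9% in common with Ugt1a6a. The share was 56.4% for Ugt2b5, 52.9% for Ugt2b38, 34.4% for Ugt2b37, 55.6% for Sult2a1 and 74.5% for Sult2a2. For Ugt2b1, Sult1a1 and Sult2a8 it was 0.826%, 9.35% and 2.88%. Levels of the genes with high shares are therefore uncertain.

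Sequence upstream of the start sites is shown for some of the members compared below, because both clusters hold several promoters that could be read side by side. No RefSeq promoter was available for Ugt1a6b and Ugt3a2, among others. Windows are the 120 bases before the RefSeq start (GRCm38.p6), 5′ to 3′ on the strand of the gene. The first set comes from Ugt1a genes on the plus strand of chromosome 1, at chr1:88211839-88211958 for Ugt1a1, chr1:88134689-88134808 for Ugt1a6a, chr1:88070659-88070778 for Ugt1a9 and chr1:88055291-88055410 for Ugt1a10. Capitals mark GTTAAT on either strand, the core of a site of the hepatocyte factor HNF1.
Ugt1a1: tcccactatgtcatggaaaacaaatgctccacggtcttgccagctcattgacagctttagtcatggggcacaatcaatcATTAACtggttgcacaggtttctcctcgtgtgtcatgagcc
Ugt1a6a: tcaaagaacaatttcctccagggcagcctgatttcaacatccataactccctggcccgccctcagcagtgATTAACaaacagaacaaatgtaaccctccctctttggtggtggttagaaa
Ugt1a9: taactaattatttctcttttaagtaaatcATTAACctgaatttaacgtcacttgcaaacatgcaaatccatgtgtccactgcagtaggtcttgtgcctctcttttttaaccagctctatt
Ugt1a10: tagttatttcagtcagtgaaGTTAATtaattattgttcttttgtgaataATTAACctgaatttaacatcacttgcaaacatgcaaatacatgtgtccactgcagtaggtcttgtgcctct
In a global alignment with gaps, the windows of Ugt1a9 and Ugt1a10 had 75.8% of their 120 bases identical, against a median of 53.3% over the 49 pairs of Ugt1a or of Ugt2b windows aligned in the same way. The second set comes from Ugt2b genes on the minus strand of chromosome 5, at chr5:87140341-87140460 for Ugt2b5, chr5:87254789-87254908 for Ugt2b37, chr5:87424204-87424323 for Ugt2b38, chr5:87092556-87092675 for Ugt2b36 and chr5:86926504-86926623 for Ugt2b1. Capitals mark the longest run that Ugt2b5, Ugt2b37 and Ugt2b38 have in common.
Ugt2b5: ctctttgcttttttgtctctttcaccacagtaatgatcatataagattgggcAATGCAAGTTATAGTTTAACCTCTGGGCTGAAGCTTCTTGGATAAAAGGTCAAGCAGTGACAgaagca
Ugt2b37: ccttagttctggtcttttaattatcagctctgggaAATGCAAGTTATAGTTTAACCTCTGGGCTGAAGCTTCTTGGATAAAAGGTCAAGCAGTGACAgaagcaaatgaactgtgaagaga
Ugt2b38: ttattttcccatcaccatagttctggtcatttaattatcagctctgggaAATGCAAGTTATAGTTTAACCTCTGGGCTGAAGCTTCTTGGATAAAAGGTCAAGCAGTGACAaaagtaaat
Ugt2b36: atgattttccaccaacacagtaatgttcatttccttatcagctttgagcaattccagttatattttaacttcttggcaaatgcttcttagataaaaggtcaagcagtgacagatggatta
Ugt2b1: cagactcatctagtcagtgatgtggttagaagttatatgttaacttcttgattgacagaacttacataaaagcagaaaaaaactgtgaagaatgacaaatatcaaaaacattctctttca
The run spans 62 bases and occurs in 3 of the 32851 promoters of the RefSeq table, those of the 3 genes shown. The longest piece of it was 22 bases in the Ugt2b36 window and 8 bases in the Ugt2b1 window. In the same alignment, Ugt2b38 had 80% of its window identical with that of Ugt2b5 and 75% with that of Ugt2b36.

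Over whole promoters, taken as 250 bases before to 50 after the start, GTTAAT on either strand occurred in 13 of the 39 member promoters (36 genes), or 33.3%, against 7.1% of all promoters. The 13 were Ugt1a1, Ugt1a6a, Ugt1a9, Ugt1a10, Ugt2a3, Ugt3a1, Sult1a1, Sult1d1, Sult2a3, Sult2a4, Sult2a5, Sult2a6 and Sult3a2. They are not independent, since sequence around the match is alike in Sult2a3 to Sult2a6 and in Ugt1a9 and Ugt1a10. Sult2a3 and Sult3a2 were not detected, and Sult2a4, Sult2a5 and Sult2a6 had at most 10 reads in a library. The STAT motif TTCNNNGAA was found in 2 member promoters, those of Ugt1a6a and Sult3a1, or 5.13% against 8.3% of all. The AhR motif TNGCGTG was also found in 2, those of Ugt1a5 and Sult1d1, or 5.13% against 5.07%. The antioxidant response motif TGACNNNGC was in 0 of the 39, against 12.4% of all promoters. All motifs were searched on both strands, and in the members no matches of different motifs overlapped. A match is a string of letters and not a binding site.

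In tumours, most Ugt genes were lower than in non-tumour liver in direction, and the abundant phenol sulfotransferase gene Sult1a1 was higher, but no member passed the test. Of 13650 genes compared with edgeR's quasi-likelihood test over the 5 profiles, 0 (0%) had a Benjamini-Hochberg adjusted p under 0.05, and 451 (3.3%) had an unadjusted p under 0.05. The smallest adjusted p was 0.995. Among members the counts were 0 and 7 of 27, the smallest unadjusted p being 0.0158 for Ugt2b38. Of the 16 tested Ugt genes 15 had a negative log2 fold change (tumour over non-tumour), with a median of -0.37. Of the 11 tested Sult genes 4 had a negative one, with a median of 0.54. Over all 13650 genes 47.8% were negative and the median was 0.01, and of the 7174 genes with a mean of 10 CPM or more 54.7% were negative.

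The order of single profiles gave a similar picture. In 8 members, all of them Ugt genes, every tumour profile lay below every non-tumour profile, which was so for 8.32% of all genes tested. These were Ugt1a6b, Ugt1a9, Ugt1a10, Ugt2b1, Ugt2b37, Ugt2b38, Ugt3a1 and Ugt3a2. In 2 members, Sult1a1 and Sult1c2, every tumour profile lay above, against 10% of all genes. With fewer profiles more genes separate: without tumour 3 the counts were 13 below and 6 above, against 17.4% and 23.2% of all genes tested, and without non-tumour 1 they were 13 of 29 and 3, against 20.2% and 23.5%. A log2 fold change of 1 or more in size was seen in 6 members, against 5.27% of all genes: Ugt1a6a, Sult4a1, Sult2a2 and Sult2b1 with higher values, and Ugt1a9 and Ugt1a10 with lower values in tumours. Sult4a1, Sult2a2, Sult2b1 and Ugt1a10 had few reads, with means of 0.293 to 0.794 CPM. Of the 18 members with a mean of 10 CPM or more 0 reached that size, against 106 of 7174 such genes. The 6 became 3 without tumour 1, against 4.52% of all genes, and 11 of 29 without non-tumour 1, against 10.1%. With the 8 libraries taken as separate samples, 56 of 12880 genes (0.435%) passed, and 0 of them were members. With no filter on low counts 427 of 24531 genes (1.74%) passed, among them 5 members: Ugt1a9, Ugt1a6b, Ugt1a6a, Sult2a1 and Sult2b1.

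**Figure D1:**
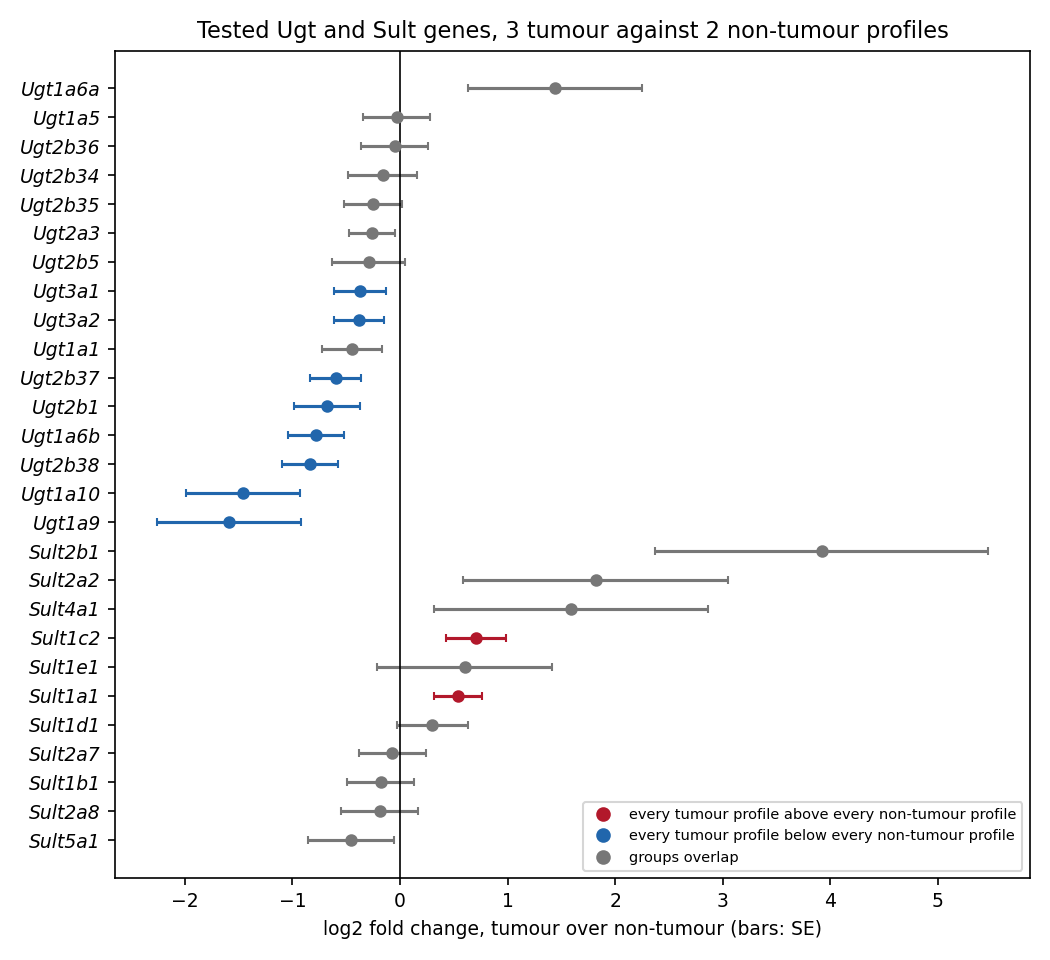
Log2 fold change, tumour over non-tumour, of the 27 tested members, with Ugt genes above and Sult genes below; points are edgeR estimates over 3 tumour and 2 non-tumour profiles and bars are standard errors. Colour marks whether the profiles of the groups overlap. Of 16 Ugt genes 15 lie left of 0, and Sult2b1, with few reads, lies farthest right.

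The Ugt2b genes gave most of the Ugt reads. These enzymes are known for conjugating steroids, bile acids and drugs. Per kilobase of exon not shared with another gene, Ugt2b5 was the most abundant member, with 312 CPM per kb in tumours and 379 in non-tumour liver on average over profiles. Ugt2b36 followed, with 299 and 307 CPM per kb. Sult2a8, Ugt2b1, Sult1a1 and Ugt1a1 came next. The summed level of the 7 Ugt2b genes was 2298 ± 483 CPM in tumours (SD, n = 3) and 2846 ± 812 CPM in non-tumour liver (SD, n = 2). The difference was within the spread of the profiles (exact permutation test, two-sided p = 0.4, where 0.2 is the smallest p this test can give here).

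Within this cluster the genes did not move alike. Ugt2b1 had 369, 283, 504 and 289 CPM in tumours 1 to 4, against 515, 691, 737 and 717 CPM in non-tumour pieces 1 to 4. Every tumour library was below every non-tumour library, with a log2 fold change of -0.68 (SE 0.31, edgeR adjusted p = 0.995). Ugt2b38, which is more abundant in male than in female mouse liver, had 125, 142, 99.1 and 150 CPM in tumours, against 181, 255, 261 and 256 CPM in non-tumour pieces. Its groups did not overlap either, and its log2 fold change was -0.84 (SE 0.26, edgeR adjusted p = 0.995). Ugt2b37 had 21.1, 25.4, 26.4 and 26.1 CPM in tumours, against 28.5, 45.2, 43 and 46.5 CPM in non-tumour pieces, a log2 fold change of -0.60. The non-tumour 1 piece was the nearest to the tumours for all 3 genes.

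Ugt2b36 had much the same range in both groups, with 467, 610, 765 and 613 CPM in tumours against 521, 724, 750 and 752 CPM in non-tumour pieces. Its log2 fold change was -0.05 (SE 0.31). Ugt2b5, the neighbour of Ugt2b36, had 474, 507, 752 and 521 CPM in tumours, against 515, 888, 909 and 882 CPM in non-tumour pieces. Here non-tumour 1 was within the tumour range and the groups overlapped. Ugt2b34 had 318, 414, 544 and 425 CPM in tumours, against 374, 558, 579 and 577 CPM in non-tumour pieces, and Ugt2b35 had 112, 174, 139 and 177 against 138, 197, 189 and 204 CPM. Both overlapped between groups, with log2 fold changes of -0.16 and -0.25. Left with non-tumour 1 as the sole non-tumour profile, the log2 fold changes of Ugt2b34, Ugt2b35, Ugt2b36 and Ugt2b5 turned positive, at 0.19, 0.04, 0.23 and 0.17, while those of Ugt2b1, Ugt2b37 and Ugt2b38 stayed negative, at -0.42, -0.23 and -0.56.

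**Figure D2:**
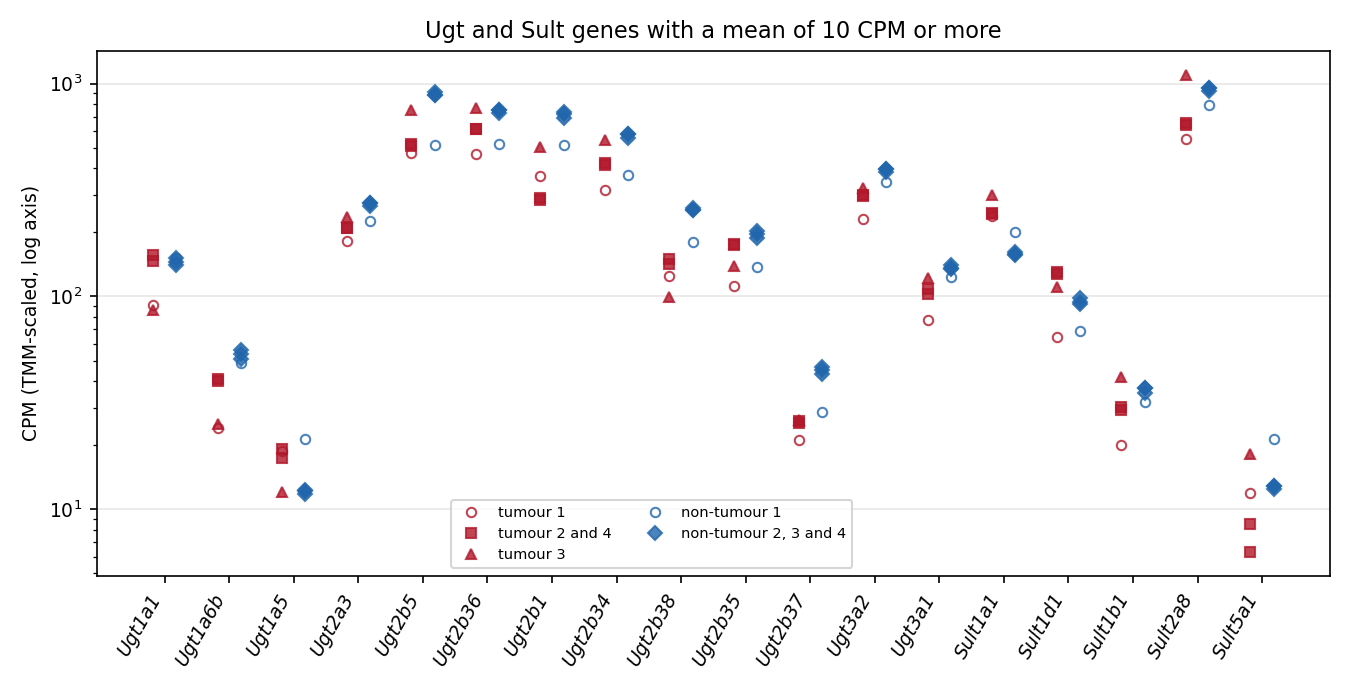
Level of the 18 members with a mean of 10 CPM or more in each library, on a log axis, with tumour libraries (red) left of non-tumour libraries (blue) for each gene; marker shapes show the near-identical libraries. Ugt2b38 and Ugt2b1 show red points below all blue points, and Sult1a1 shows red points above them.

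Ratios within a library do not depend on how libraries are scaled. Ugt2b36 was taken as the common denominator after its values were seen. The ratio of Ugt2b1 to Ugt2b36 was 0.79, 0.464, 0.659 and 0.471 in tumours 1 to 4, against 0.954 to 0.988 in the 4 non-tumour pieces. That of Ugt2b38 to Ugt2b36 was 0.268, 0.232, 0.13 and 0.244 in tumours, against 0.34 to 0.352. The non-tumour pieces lay close together on both ratios, non-tumour 1 included, although their levels in CPM differed. Ratios to Ugt2b36 were also lower in all tumour than in all non-tumour libraries for Ugt2b37 and Ugt2b34, and overlapped for Ugt2b5, Ugt2b35 and Ugt2a3.

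**Figure D3:**
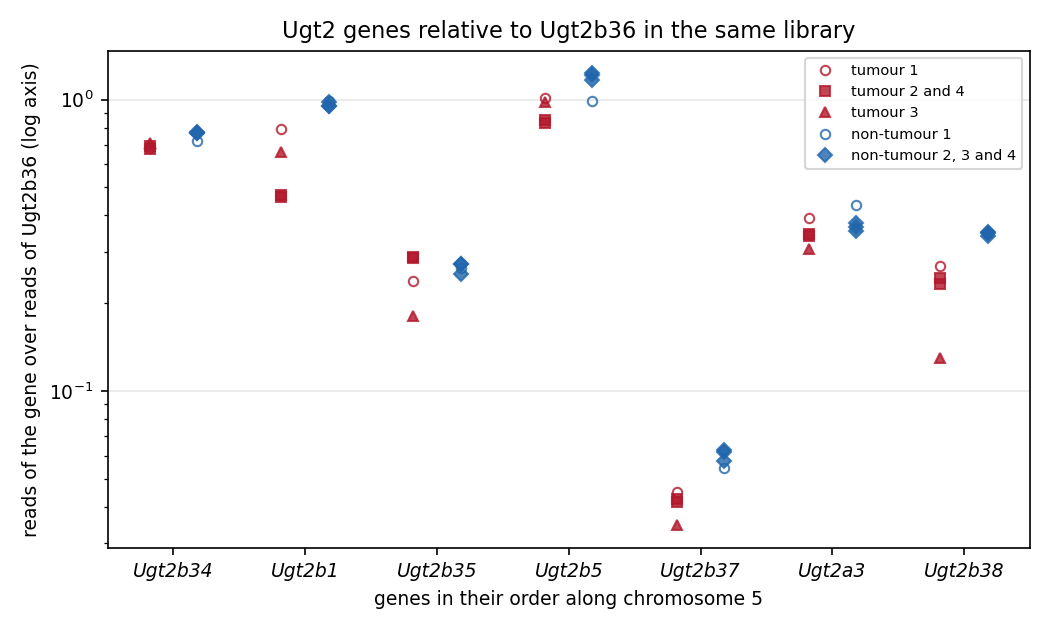
Reads of 7 Ugt2 genes over reads of Ugt2b36 in the same library, on a log axis, with genes in their order along chromosome 5 and tumour libraries (red) left of non-tumour libraries (blue). For Ugt2b1 the tumour ratios lie at 0.464 to 0.79 and the non-tumour ratios at 0.954 to 0.988.

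Ugt2a3 lies in the same stretch of chromosome 5 and encodes an enzyme known to act on bile acids in humans. It had 183, 210, 235 and 209 CPM in tumours, against 227, 274, 267 and 274 CPM in non-tumour pieces, and tumour 3 lay above non-tumour 1. Its log2 fold change was -0.26 (SE 0.21). The 2 Ugt3a genes, whose human counterparts use sugars other than glucuronic acid, lie next to each other on chromosome 15. Ugt3a2 had 232, 299, 323 and 297 CPM in tumours, against 344, 383, 396 and 396 CPM in non-tumour pieces. Ugt3a1 had 77.1, 108, 122 and 103 CPM in tumours, against 123, 136, 140 and 135 CPM in non-tumour pieces. Tumour values were below non-tumour values throughout for both, with log2 fold changes of -0.38 (SE 0.23) and -0.37 (SE 0.24). The ratio of Ugt3a1 to Ugt3a2 was 0.332 to 0.377 in tumours and 0.342 to 0.358 in non-tumour pieces, so the ranges of the ratio overlapped.

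At the Ugt1a locus, reads could be assigned to a gene only on its unshared exon sequence, since 50.3% to 60.6% of the exon bases of these genes overlap each other. That sequence was 2142 bases for Ugt1a6a and 1915 bases for Ugt1a7c, against 879 to 949 bases for the others. In these 2 genes it may reach beyond the first exon, so their shares need not reflect first exon use. The reads counted for the 9 Ugt1a genes summed to 168 ± 49.5 CPM in tumours (SD, n = 3) and 236 ± 1.04 CPM in non-tumour liver (SD, n = 2). The tumour sums, 140, 231, 138 and 220 CPM in tumours 1 to 4, were below the 233 to 242 CPM of the non-tumour pieces, though tumour 2 lay close to them (exact permutation test, two-sided p = 0.2, the smallest p this test can give here). Ugt1a1, which encodes the enzyme that conjugates bilirubin, took the largest share of these reads per unshared kilobase, with 65.6% to 68.4% in tumours and 60.5% to 64.9% in non-tumour pieces. It had 91.1, 156, 86.8 and 146 CPM in tumours, against 152, 141, 151 and 145 CPM in non-tumour pieces. Tumours 1 and 3 were low, tumour 4 was within the non-tumour range and tumour 2 was the highest library. Its log2 fold change was -0.45 (SE 0.28).

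Ugt1a6b and Ugt1a9 were lower in tumours than in non-tumour pieces in every library, while failing the adjusted test. Both are known for conjugating phenols. Ugt1a6b had 24.2, 41, 25.1 and 40 CPM in tumours, against 48.7, 56.2, 53.4 and 50.8 CPM in non-tumour pieces. Its log2 fold change was -0.78 (SE 0.26, edgeR adjusted p = 0.995). Ugt1a9 had 3.64, 10.4, 1.9 and 10.8 CPM in tumours, against 11, 22.1, 21.3 and 21.5 CPM in non-tumour pieces. The values of tumours 2 and 4 came near that of non-tumour 1, and the log2 fold change was -1.59 (SE 0.67, edgeR adjusted p = 0.995). Ugt1a10, at 2 to 7 reads in tumours and 7 to 13 reads in non-tumour pieces, had a log2 fold change of -1.46 (SE 0.53).

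Relative to Ugt1a1 in the same library, Ugt1a6b was at 0.263 to 0.289 in tumours and 0.321 to 0.4 in non-tumour pieces. Ugt1a9 relative to Ugt1a1 was 0.04, 0.0663, 0.0219 and 0.074 in tumours, against 0.0728, 0.157, 0.141 and 0.148 in non-tumour pieces. For Ugt1a6b the ranges were apart, and for Ugt1a9 tumour 4 was just above non-tumour 1. Ugt1a5 had 18.8, 19.1, 12 and 17.5 CPM in tumours, against 21.4, 11.8, 12.3 and 12.2 CPM in non-tumour pieces. Non-tumour 1 was the highest library for Ugt1a5, and its log2 fold change of -0.03 (SE 0.31) became 0.42 without that piece. Ugt1a7c was detected at 2 to 7 reads in tumours and 2 or 3 reads in non-tumour pieces and was not tested.

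**Figure D4:**
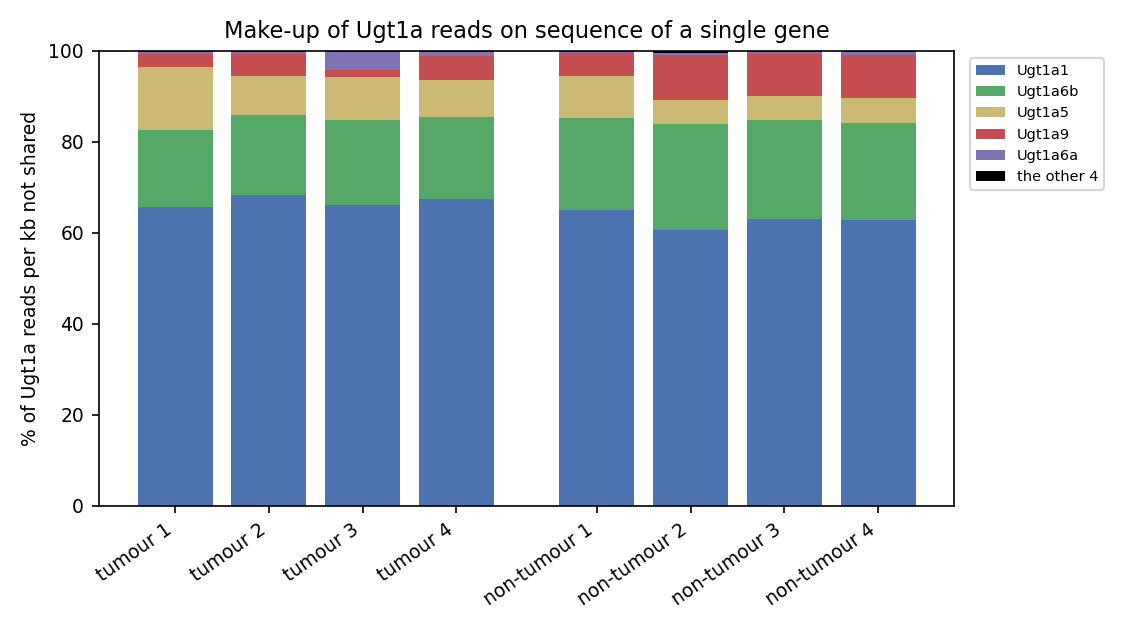
Make-up of the reads counted for the 9 Ugt1a genes, as a percentage after division by the length of each gene's unshared exon sequence, in tumours 1 to 4 (left) and non-tumour pieces 1 to 4 (right). Ugt1a1 takes 65.6% to 68.4% in tumours and 60.5% to 64.9% in non-tumour pieces, and the Ugt1a6a segment is visible in tumour 3.

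Ugt1a6a differed from the other Ugt1a genes through 1 library. It had 1.82, 3.19, 12.1 and 4.44 CPM in tumours 1 to 4, against 1.46, 2.51, 2.66 and 3.06 CPM in non-tumour pieces. Tumour 3 was 5.31 times the median of the other 4 profiles, and tumour 1 lay within the non-tumour range. In that library Ugt1a6a took 3.94% of the Ugt1a reads per unshared kilobase, against 0.559% to 0.874% in the other tumours and 0.267% to 0.564% in non-tumour pieces. Its log2 fold change was 1.44 (SE 0.81, edgeR adjusted p = 0.995) with tumour 3 and 0.40 without it. Tumour 3 was also the highest library for Nr1i3, the xenobiotic receptor CAR, with 243 CPM against 54 to 102 CPM in the other tumours and 64.9 to 91.2 CPM in non-tumour pieces. Cyp1a1, a readout of the aryl hydrocarbon receptor, was at 1.27 CPM in tumour 3, 0.41 to 1.04 CPM in the other tumours and 0.605 to 0.936 CPM in non-tumour pieces. Cyp1a2, another readout of it, was also highest in tumour 3, at 846 CPM. Its readouts Tiparp and Cyp1b1 were lower in tumour 3 than in the other tumours, at 6.02 and 0.317 CPM. Cyp2b10, a readout of CAR, had 1 read in tumour 3, or 0.0634 CPM, the lowest level of all libraries. Whether these values bear on Ugt1a6a was not tested.

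Among the sulfotransferases, Sult1a1 encodes the main phenol-conjugating enzyme of the liver. It had 240, 245, 300 and 246 CPM in tumours 1 to 4, against 200, 157, 162 and 158 CPM in non-tumour pieces. All tumours lay above all non-tumour pieces, and the log2 fold change was 0.54 (SE 0.22, edgeR adjusted p = 0.995), or 0.43 without tumour 3. Sult1c2, chosen for description after its values were seen, had 7.29, 8.98, 10.2 and 9.77 CPM in tumours, against 6.71, 3.96, 4.09 and 4.74 CPM in non-tumour pieces. The tumour libraries were again the higher ones, with a log2 fold change of 0.71 (SE 0.28, edgeR adjusted p = 0.995), and non-tumour 1 came close to tumour 1. The 6 Sult1 genes together had 404 ± 65.6 CPM in tumours (SD, n = 3) and 302 ± 10.5 CPM in non-tumour liver (SD, n = 2), with no overlap (exact permutation test, two-sided p = 0.2, the smallest p this test can give here). The sum of all 21 Sult genes was 1188 ± 356 CPM for tumours and 1192 ± 91.6 CPM for non-tumour liver, a difference within the spread (exact permutation test, two-sided p = 1).

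Sult1b1, Sult1d1 and Sult1e1 overlapped between groups. They lie beside the Ugt2 genes on chromosome 5. Sult1d1, which encodes a catecholamine-conjugating enzyme in mice, had 64.8, 127, 111 and 130 CPM in tumours, against 68.7, 93.7, 91.8 and 98 CPM in non-tumour pieces. Piece 1 of either kind was the low one, and the log2 fold change was 0.30 (SE 0.33). Sult1b1, whose enzyme acts on thyroid hormones, had 20, 29.4, 41.8 and 30.2 CPM in tumours, against 32, 37.1, 37 and 35.2 CPM in non-tumour pieces, a log2 fold change of -0.18 (SE 0.31).

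Sult1e1, the gene of the oestrogen sulfotransferase, divided the libraries in another way. It had 1.82, 2.45, 0.571 and 1.92 CPM in tumours, against 1.77, 0.291, 0.273 and 0.562 CPM in non-tumour pieces. In reads, these were 40, 50, 9 and 39 in tumours and 35, 5, 4 and 9 in non-tumour pieces. Non-tumour 1 was thus with the higher tumours and tumour 3 with the lower non-tumour pieces. The log2 fold change of 0.60 (SE 0.81) became 2.02 without non-tumour 1 and -0.18 with that piece as the sole non-tumour profile.

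Sult2a8, the most abundant Sult2 gene, encodes an enzyme known to sulfate bile acids in mouse liver. It had 548, 636, 1102 and 654 CPM in tumours, against 793, 924, 956 and 953 CPM in non-tumour pieces. Tumour 3 was the highest library and the other tumours were the lowest ones, so the groups overlapped and the log2 fold change was -0.19 (SE 0.36), or -0.55 without tumour 3. The ratio of Sult1a1 to Sult2a8 was 0.438, 0.386, 0.272 and 0.376 in tumours, against 0.252 in non-tumour 1 and 0.165 to 0.17 in the other non-tumour pieces. It was above the non-tumour values in all tumours, tumour 3 being the nearest.

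The remaining Sult2 genes were at low levels, and several had reads mainly in tumours 1, 2 and 4. Sult2b1, whose enzyme conjugates cholesterol and pregnenolone, had 21, 9, 0 and 10 reads in tumours, against 0, 2, 0 and 0 reads in non-tumour pieces. Its fitted log2 fold change of 3.92 (SE 1.55) rests on few reads and depends on the prior count of the fit. Sult2a1, whose product conjugates steroids and bile acids and which is more abundant in female mouse liver, had 11, 2, 0 and 5 reads in tumours and 0 in each non-tumour piece. Sult2a2 had 25, 8, 1 and 10 reads in tumours, against 0, 3, 5 and 4 reads in non-tumour pieces. Sult2a4, Sult2a5 and Sult2a6 had at most 10 reads in a library. Summed over Sult2a1 to Sult2a6, levels were 2.73, 0.638, 0.0634 and 1.04 CPM in tumours, against 0, 0.233, 0.409 and 0.562 CPM in non-tumour pieces. The groups overlapped through tumour 3. Sult2a7 had 2.87 to 4.29 CPM in tumours and 2.93 to 4.64 CPM in non-tumour pieces.

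Sult4a1, a gene known from brain, had 46, 23, 0 and 22 reads in tumours, against 11, 4, 6 and 0 reads in non-tumour pieces. Tumour 3 was again without reads, and the log2 fold change was 1.59 (SE 1.27). Sult5a1 had 11.9, 8.54, 18.1 and 6.32 CPM in tumours, against 21.3, 12.9, 12.4 and 12.9 CPM in non-tumour pieces, and overlapped between groups. Sult3a1, another gene more abundant in female mouse liver, had 1, 6, 2 and 2 reads in tumours, against 4, 0, 0 and 0 reads in non-tumour pieces, and was not tested. Sult2b1, Sult2a1 and Sult4a1, with 0 reads in tumour 3, had reads in the tumours that were high for Afp, Gpc3 and H19; the part of this in their group difference was not tested.

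**Figure D5:**
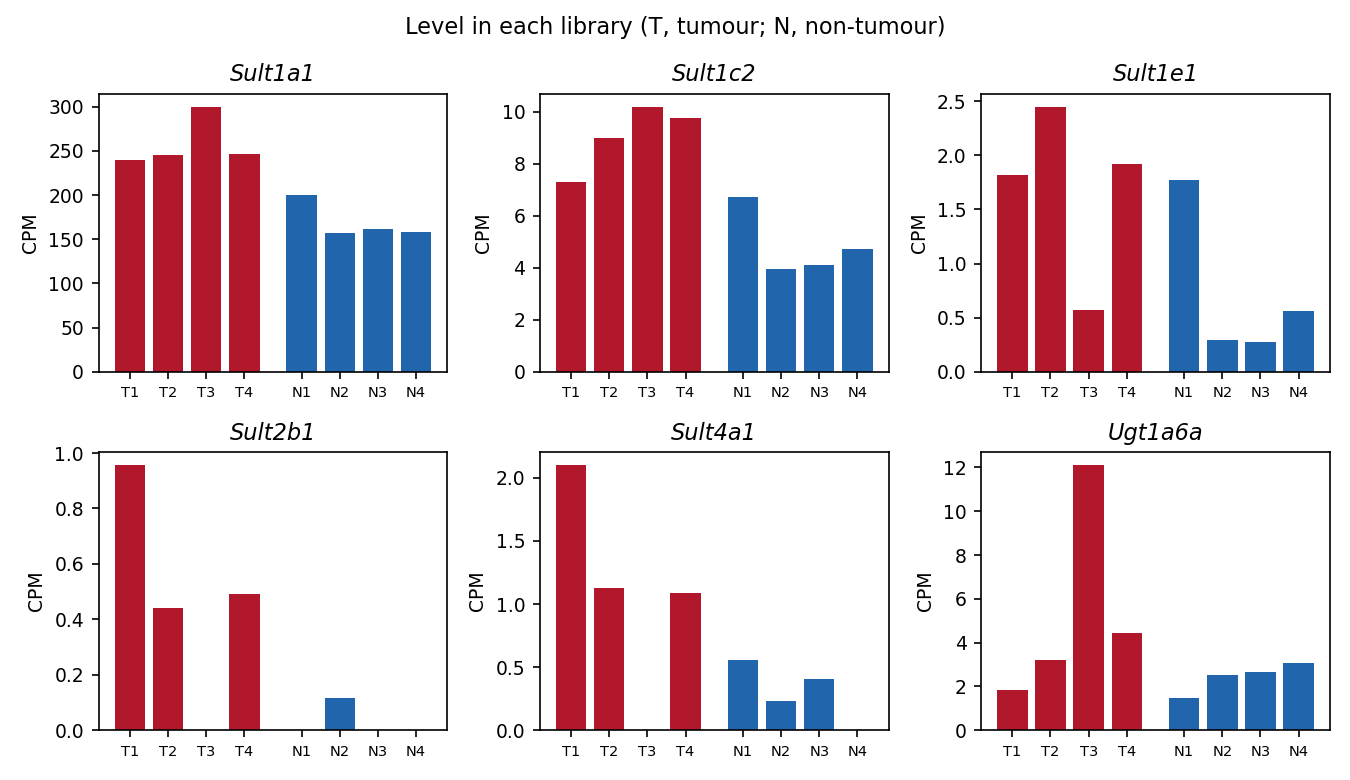
CPM of Sult1a1, Sult1c2, Sult1e1, Sult2b1, Sult4a1 and Ugt1a6a in tumours 1 to 4 (T, red) and non-tumour pieces 1 to 4 (N, blue), on linear axes from 0 that differ between panels. Sult1a1 is at 240 to 300 CPM in tumours and 157 to 200 CPM in non-tumour pieces; Sult2b1 and Sult4a1 have 0 in tumour 3, and Ugt1a6a is at 12.1 CPM there.

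Genes that supply the cofactors had log2 fold changes in both directions. Of 8 tested genes of UDP-glucuronic acid supply and removal 0 passed edgeR's adjusted test in either direction and 0 had an unadjusted p under 0.05, with 4 positive and 4 negative log2 fold changes and a median of -0.01. Ugp2, which makes UDP-glucose, had 368, 516, 472 and 548 CPM in tumours, against 332, 358, 366 and 361 CPM in non-tumour pieces, above in every tumour. Ugdh, which oxidises UDP-glucose to UDP-glucuronic acid, had 97.2, 155, 153 and 155 CPM in tumours, against 125, 205, 210 and 213 CPM in non-tumour pieces, where non-tumour 1 lay within the tumour range. Their log2 fold changes were 0.39 (SE 0.24) and -0.32 (SE 0.32).

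Of 9 tested genes of PAPS supply and sulfate removal 0 passed, and 0 without adjustment, with 4 positive and 5 negative values and a median of -0.16. The PAPS synthases were close between groups: Papss1 averaged 17.4 ± 1.72 CPM in tumours (SD, n = 3) and 17 ± 0.65 CPM in non-tumour liver (SD, n = 2). Papss2 averaged 110 ± 6.85 CPM for tumours and 122 ± 12.1 CPM for non-tumour liver. Bpnt1, which breaks down the spent cofactor, had 49.3, 54.3, 45.2 and 53.2 CPM in tumours, against 58.3, 64.7, 64.9 and 67.6 CPM in non-tumour pieces. Tumours were below throughout, with a log2 fold change of -0.34 (SE 0.17). Ethe1, a mitochondrial enzyme of sulfide oxidation, had a log2 fold change of -0.57 (SE 0.29).

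Of 17 tested receptors and factors known to control these families 0 passed, and 0 without adjustment, 4 were positive and 13 negative, and the median was -0.16. Stat5b, which carries the growth hormone signal behind sex-biased liver expression, had 44, 44.4, 35.1 and 44.6 CPM in tumours, against 55.8, 49.9, 54.7 and 49.9 CPM in non-tumour pieces. The groups did not overlap, and the log2 fold change was -0.39 (SE 0.17). The log2 fold changes of the xenobiotic receptors Nr1i2 (PXR) and Ahr were -0.04 (SE 0.33) and -0.20 (SE 0.17), and that of Nr1i3 was 0.76 (SE 0.61), or -0.01 without tumour 3. Onecut1 had a log2 fold change of -1.36 (SE 0.68), and 0.07 without non-tumour 1, where it stood at 22.9 CPM. Among 17 tested readouts of these receptors 0 passed, and 1 without adjustment, with a median of -0.08: Cyp4a31, of the PPARα response, had 0.62 (SE 0.25), and Cyp2c55, of the CAR and PXR response, had -1.43 (SE 0.67). A list of 6 conjugate transporters held the efflux genes Abcc2, Abcc3, Abcc4, Abcc6 and Abcg2 and the uptake gene Slco1b2; it had a median of -0.01, and 0 passed, with or without adjustment.

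Sex-biased liver genes, a list that includes Ugt2b38 itself, had medians farther from 0 than the other pathway lists. Both lists were chosen with earlier results of these data known. Of 16 tested male-biased genes 15 were negative, against 47.8% of all genes tested, with a median of -0.90. In 9 of the 16 every tumour profile lay below every non-tumour profile, against 8.32% of all genes tested. Of 11 tested female-biased genes 8 were positive, with a median of 1.64, and 0 genes of either list passed edgeR's adjusted test. The 3 negative ones were Cyp3a41a, Cyp3a41b and Cyp3a44, with log2 fold changes of -1.43, -1.43 and -1.66 and groups that overlapped, so the list did not move as 1. Unadjusted p-values under 0.05 in edgeR's test were found for 7 male-biased and 4 female-biased genes, against 3.3% of all genes tested. Tumour 3 stood apart on both lists: the female-biased sum was 700, 842, 187 and 818 CPM in tumours, against 199 to 260 CPM in non-tumour pieces, and the male-biased sum was 18493, 7250, 22051 and 7631 CPM, against 18524 to 25961 CPM. In tumour 3 the first was below and the second within the non-tumour range. Mup7 was the largest part of the second sum, with 15810 CPM in tumour 3 and 8798 to 18115 CPM in non-tumour pieces. In the 9 male-biased genes without overlap, tumour 3 too lay below every non-tumour profile, so the sum does not stand for the list. Cyp2a4, the female-biased gene at the median, had 494, 560, 108 and 550 CPM in tumours, against 126, 116, 123 and 120 CPM in non-tumour pieces. Susd4, a male-biased gene, had 24, 18.8, 30.2 and 15.9 CPM in tumours, against 47.8, 57.1, 57 and 58.3 CPM in non-tumour pieces. Hao2, a female-biased gene, had 3.69, 6.14, 2.66 and 5.18 CPM in tumours, against 1.06, 0.583, 0.205 and 0.312 CPM in non-tumour pieces. Their log2 fold changes were -1.16 (SE 0.25) and 2.56 (SE 0.59). Other listed genes with low p were Obp2a at -2.12 (SE 0.49) and Fmo2 at 1.90 (SE 0.59).

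Markers of other cell types moved with the groups in part. The summed level of 6 cholangiocyte markers was 405, 189, 22.6 and 197 CPM in tumours, against 33.1 to 39.9 CPM in non-tumour pieces. Spp1 and Tspan8 made up most of it in tumours 1, 2 and 4. The defining marker Krt19, which was not tested, was at 2.6, 0.393, 0.38 and 0.0987 CPM in tumours and 0.187 to 0.409 CPM in non-tumour pieces. The 5 tested markers of this list all had positive log2 fold changes, that of Sox9 being 0.07 and that of Krt7 2.46. Krt7 had few reads, 54, 9, 10 and 4 in tumours against 3, 4, 4 and 3 in non-tumour pieces. Its tumour profiles all lay above its non-tumour profiles (edgeR adjusted p = 0.995). Of 4 B and plasma cell markers the sum was 14.8, 15.5, 7.42 and 16.1 CPM in tumours, against 5.12 to 7.05 CPM in non-tumour pieces, most of it Jchain. Of 6 periportal hepatocyte markers it was 1916 to 2221 CPM in tumours and 2432 to 3731 CPM in non-tumour pieces, without overlap. Only Cyp2f2 and Ass1 were below in every tumour, while Hal, Sds and Gls2 overlapped between groups. Hsd17b13 went the other way, above in every tumour, with a log2 fold change of 0.55. Of 6 pericentral markers the sum was 4378 to 11865 CPM in tumours and 7658 to 8676 CPM in non-tumour pieces. Of 5 intestinal markers it was 166 to 295 CPM in tumours and 72.9 to 98.5 CPM in non-tumour pieces, most of it Fabp2, which hepatocytes may also express, while Cdx2 was at 0 in all libraries. The part of these differences in the Ugt and Sult values was not tested.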

How the data were processed

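Raw counts were deposited by the authors, who made them, per the file headers, with featureCounts 1.6.2 over exons of Ensembl release 95 (GRCm38), strand setting 2, without multi-mapping reads or reads that overlap several genes. STAR 2.5.0 and Subread 1.6.2 are named in the submitters' processing notes. Symbols matched 54723 of 54838 IDs, and 6 pseudogene symbols were left out. Groups came from the labels. Counts of near-identical libraries (chi-square per degree of freedom under 10 among genes of at least 20 reads per pair) were summed. A profile's level is the mean of its libraries. Group differences used edgeR 4.0.16 (R 4.3.3, quasi-likelihood, TMM, filterByExpr with minimum count 10 and total 15, Benjamini-Hochberg adjustment over all genes, threshold 0.05). The SE of a log2 fold change is its size over the square root of F. Scripts were tested on simulated data. Levels per length used exon bases not shared with another gene on the same strand. CPM were scaled by library size and TMM factor. Floors cover counting error only, whereas the SEs also include the spread between profiles.

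Members given with every library's value are those tested with a mean of at least 10 CPM, those with a mean of at least 1 CPM that changed 2-fold without overlap, and those with a mean of at least 1 CPM with 1 profile at least 4-fold from the median of the others. Sult1c2, Sult2b1, Sult2a2, Sult2a7, Sult4a1 and Ugt1a10 were added after their values were seen, as were Ugt1a7c, Sult2a1, Sult3a1, Cyp1a1 and Cyp2a4. The same holds for Cyp1a2, Cyp1b1, Tiparp, Cyp2b10, Cyp3a41a, Cyp3a41b, Cyp3a44 and the 6 periportal markers. Other genes named are the 2 of each pathway list with the lowest p, plus Ugdh, Ugp2, Papss1, Papss2, Nr1i2, Nr1i3 and Ahr. The tumour markers and the conjugate transporters are named as whole lists. The markers Krt19, Krt7, Sox9, Spp1, Tspan8, Jchain, Fabp2 and Cdx2, and the male-biased gene Mup7, were picked with their values known. The members and lists were chosen with earlier results of these data known. Alternatives were DESeq2 1.42.0 and its size factors, limma 3.58.1 voom, library sizes alone (added after seeing the data), no expression filter, the 10 most abundant genes left out, the 8 libraries separately with and without a replicate block, and leaving out libraries or profiles. Promoters are those of the RefSeq table for GRCm38.p6.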

Additional observations from a re-analysis of the deposited data

How the results depend on the processing

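Of the 27 members with a log2 fold change, 18 kept their direction in each of the 18 alternatives that gave them a value. Of 13650 genes 0 passed the test, against 56 with 8 separate libraries, 2 with DESeq2, 0 with voom and 427 with no expression filter, and 0 to 5 when 1 library was left out (5 without tumour 3). Members that passed were 0 in each alternative but that with no expression filter, with 5. Members with a log2 fold change of at least 1 in size were 6, but 3 with the replicate block over 8 libraries, 12 with no expression filter (28.1% of all genes), and 3 to 11 when 1 library was left out (4.52% to 10.1% of all genes). Members with tumours above were 2, but 4 of 36 with no expression filter, against 8.01% of all genes. Without non-tumour 2, 3 and 4 they were 4 of 28, against 24.5% of all genes, and those with tumours below were 11 of 28, against 24.6%. When 1 library was left out, members above were 2 to 6, and members below, 8 in the main setting, were 8 to 13. Over all genes these leave-one-out shares were 9.54% to 23.5% above and 8.29% to 20.2% below. Deviations from the group mean correlated at 0.363, -0.186, 0.307 and -0.169 between same-number pieces. The value for number 1 was the highest between any tumour and any non-tumour piece. Tumour 3 correlated at 0.317, 0.307 and 0.312 with non-tumour 2, 3 and 4. Since those 3 pieces are nearly the same, the values cannot show whether the numbers pair the samples. With the replicate block 0 genes passed.

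Log2 fold changes that turned sign were those of Ugt1a5 (0.22 with 8 libraries, 0.25 with the block, 0.06 with voom), Abcc6 (-0.02 with the block), Papss1 (-0.0027 with no expression filter, -0.0051 without tumours 2 and 4) and Nr1i2 (0.05 without tumours 2 and 4). Without non-tumour 2, 3 and 4 the values were -0.18 for Sult1e1, 0.19 for Ugt2b34, 0.04 for Ugt2b35, 0.23 for Ugt2b36, 0.17 for Ugt2b5, 0.24 for Sult2a7, 0.10 for Ugdh, 0.32 for Nr1i2 and 0.28 for Cyp2c55. With 1 library left out, ranges across 0 were -0.47 to 0.05 for Sult1b1, -0.55 to 0.0014 for Sult2a8, -0.44 to 0.02 for Ugt2b34, -0.29 to 0.12 for Ugt2b36, -0.32 to 0.05 for Sult2a7, -0.14 to 0.42 for Ugt1a5, -0.02 to 0.11 for Papss1, -0.35 to 0.15 for Nr1i2, -0.01 to 1.14 for Nr1i3, -0.17 to 0.23 for Abcc6 and -1.84 to 0.07 for Onecut1. The cause was not tested. With 3 against 2 profiles, the two-sided p of the exact test used here cannot fall below 0.2, since it is 2 times the smaller one-sided p.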
